A study of Caenorhabditis elegans with 24 samples.

Results

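The hairpins cel-mir-75, cel-mir-77 and cel-mir-79 of Caenorhabditis elegans each give a 5p and a 3p mature microRNA (miRNA), and their 6 rows, of 450 in the count table, were taken by precursor name (3 of 253 precursors). Whole animals of 6 alg-1 genotypes were profiled by small RNA sequencing: wild type N2 (WT), the alleles alg-1(ma447, F180del), alg-1(ma443, G199S), alg-1(zen25, V254I) and alg-1(zen18, H751L), which model AGO1 changes found in human neurodevelopmental disorders, and the null alg-1(tm492). Hatched larvae had been fed for 45 h at 20 °C. Every genotype has 2 libraries of the lysate's small RNA (called total RNA here) and 2 of the RNA recovered with ALG-1 by immunoprecipitation (IP), which makes 24 libraries in 12 groups. Nothing in the labels says that the 2 libraries of a group come from separate cultures. The p-values thus cover library-to-library spread alone, and that spread may be technical. The study asked how the alleles change miRNA levels and the association of miRNAs with ALG-1. The hairpins were picked with earlier results on these libraries known, namely raised miR-79-5p in F180del and null total RNA, raised miR-77-5p in null total RNA and in the F180del IP, raised miR-79-3p in the F180del IP and a changed arm ratio of mir-75 in the F180del IP. Values of F180del and of null total RNA are therefore given as descriptions. Where calls are counted for them, the counts come from the same fits and stand beside the share over all features. They lend no support, because the hairpins were picked with such values known. Tests are given for the other comparisons, and these share the WT libraries with the descriptions.

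A miRNA hairpin is cut by Dicer into a duplex, and an Argonaute protein usually keeps one strand, the guide, and discards the other, the passenger. In C. elegans ALG-1 and its close relative ALG-2 are the main Argonautes for miRNAs. The guide finds target mRNAs mainly through its seed, the bases near its 5′ end. miR-75-3p and miR-79-3p are known as a family with a common seed. miR-79-3p acts in the epidermis, where it restrains genes of proteoglycan sugar synthesis and thereby affects the migration of neurons.

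The hairpins lie on different chromosomes. In the WBcel235 annotation mir-75 is on chromosome X from 2372453 to 2372549, mir-77 on chromosome II from 12519268 to 12519367, and mir-79 on chromosome I from 9332946 to 9333043, all on the plus strand. None lies within a protein-coding gene. The mir-79 hairpin overlaps C12C8.6, a non-coding RNA on the opposite strand, and its nearest protein-coding gene, 1756 bases away, is lin-41, the developmental timing gene that let-7 represses. The build that the authors used is not given in the sources used here, and these positions are those of the annotation alone.

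Levels are given in RPM, reads scaled to the total of miRNA reads in a library. Library totals ran from 4927806 to 12654183 reads in total RNA and from 3940626 to 13835895 in IP, and member counts ran from 66 reads (miR-79-5p, H751L IP, library 2) to 127992 (miR-77-3p, F180del total, library 1). All 6 arms passed the filter on low counts in every fit. Of 13 stage and tissue miRNAs followed for context, 6 of the 7 embryo and germline miRNAs rose in G199S total RNA and 5 in its IP (edgeR, adjusted p under 0.05), and lin-4-5p (total) and let-7-5p (IP), which time larval development, fell. The summed embryo and germline miRNAs were at 6036 and 3403 RPM in WT total RNA, 110596 and 83272 in G199S, 15234 and 9945 in F180del and 3204 and 3198 in null, with none of the 7 at 0 there. None of the 7 was called in either direction in null total RNA. In bulk libraries a smaller share of a cell type and a lower level per cell cannot be told apart.

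In total RNA the 5p arms of all 3 hairpins were high in F180del, G199S and null. Some 3p arms were high too, such as miR-79-3p in F180del and miR-75-3p in null, and are given further below. miR-75-5p was at 48.7 and 54.7 RPM in the WT libraries, 706 and 422 in F180del, 361 and 290.2 in G199S and 200.0 and 191 in null. miR-77-5p was at 47.5 and 26.2 RPM in WT, 672 and 575 in F180del, 791 and 454 in G199S and 435 and 232 in null. miR-79-5p was at 23.3 and 21.1 RPM in WT, 297 and 558 in F180del, 348 and 393 in G199S and 419.8 and 1329 in null. For each of these arms both libraries of F180del, G199S and null lay above both WT libraries. Of the 303 miRNAs tested, 44.6% did so in F180del and 30.4% in null, and the share was not counted for G199S. The order of the group means differed between the arms. miR-75-5p was highest in F180del, then G199S, then null, without overlap between neighbours. miR-77-5p libraries of F180del and G199S overlapped above those of null. miR-79-5p was highest in null, with libraries that overlapped those of F180del.

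The 5p arms of all 3 hairpins rose in G199S total RNA. The log2 change against WT was 2.43 ± 0.62 for miR-75-5p (SE, n = 2 per group; edgeR quasi-likelihood test, adjusted p = 0.0194), 3.88 ± 0.70 for miR-77-5p (adjusted p = 0.00158) and 3.86 ± 0.72 for miR-79-5p (adjusted p = 0.00189). These 3 of 6 arms stand beside 11.9% of the 303 miRNAs tested, most of which also rose, and the median log2 change was 1.65 over the 6 arms and 0.34 over all miRNAs tested. miR-77-5p stayed past the threshold of 0.05 without any 1 library, with a highest adjusted p of 0.0433. miR-79-5p missed it without WT total library 1 (adjusted p = 0.106) or 2 (0.0513), and miR-75-5p without either WT total library (0.210 and 0.0714) or G199S total library 1 (0.0759). The rise of the embryo and germline miRNAs in G199S accompanied these changes, and its part in them was not tested. In null total RNA the log2 changes of the 5p arms were 1.78 ± 0.61 for miR-75-5p, 3.09 ± 0.68 for miR-77-5p and 5.16 ± 0.77 for miR-79-5p. In F180del total RNA they were 2.99 ± 0.63, 3.62 ± 0.69 and 3.71 ± 0.72 in the same order. Of the 6 arms, all 6 in F180del and 5 in null lay above both WT libraries in total RNA, as did 44.6% and 30.4% of the 303 miRNAs. By edgeR 4 and 2 of the 6 were called, where 15.5% and 11.9% of miRNAs were.

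**Figure D1:**
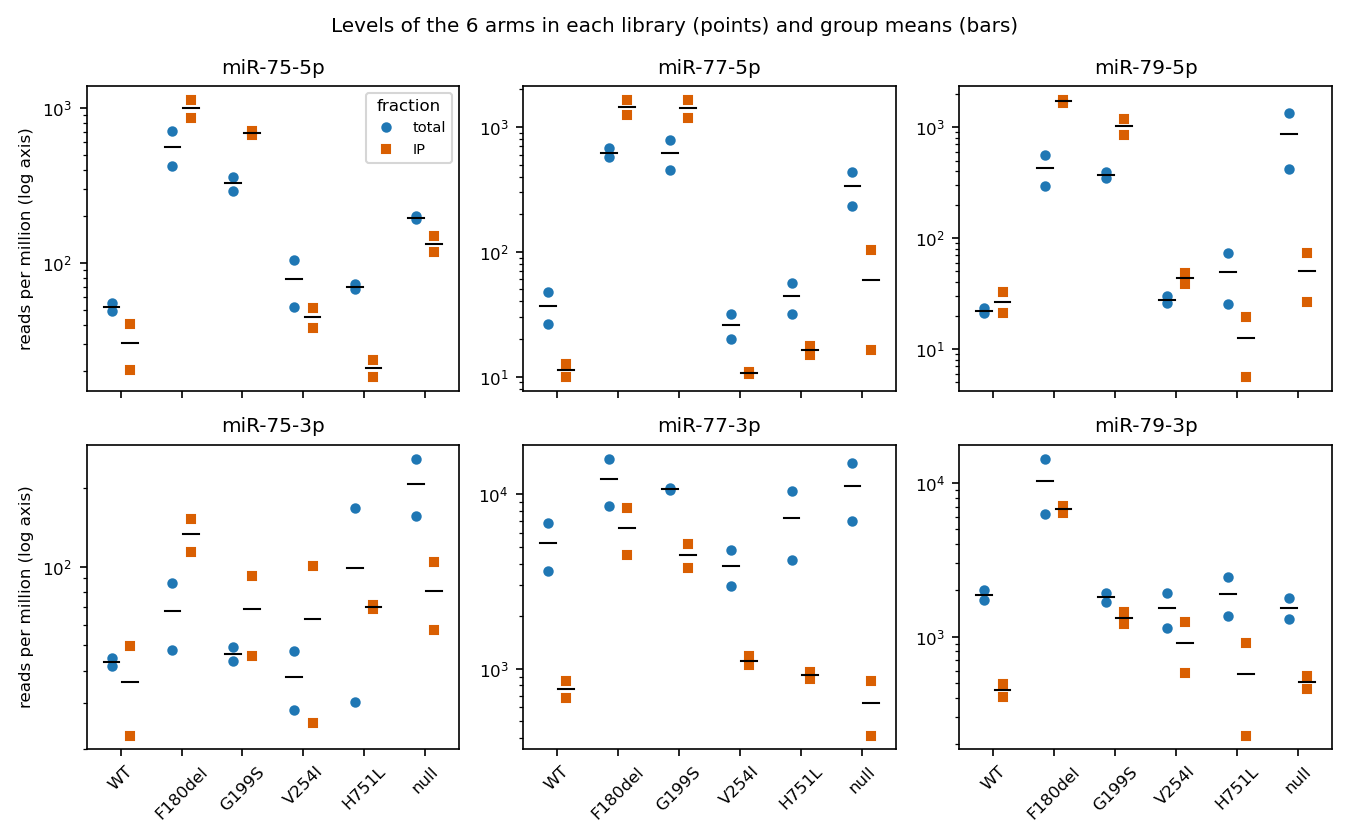
Level of each arm in RPM (log axis) in every library, by genotype, with circles for total RNA, squares for ALG-1 IP and bars for group means (2 libraries per group). The 5p arms are high in F180del and G199S in both fractions, with miR-79-5p at 1657 and 1764 RPM in the F180del IP against 32.3 and 21.0 RPM in the WT IP, and miR-79-3p is high in F180del.

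The fitted changes of the 5p arms in F180del and G199S were larger in the ALG-1 IP than in total RNA. By edgeR no arm passed a test of that difference in either allele. In null the log2 change was smaller in IP for miR-77-5p (2.53 against 3.09) and miR-79-5p (1.11 against 5.16). For miR-75-5p it was larger (2.40 against 1.78). miR-77-5p was at 12.7 and 9.99 RPM in the WT IP, 1631 and 1255 in F180del and 1648 and 1179 in G199S. These are 127 and 125 times the WT mean. miR-79-5p was at 32.3 and 21.0 RPM in the WT IP, 1657 and 1764 in F180del and 846 and 1196 in G199S. miR-75-5p was at 40.1 and 20.5 RPM in WT, 867 and 1129 in F180del and 671 and 707 in G199S. All 4 libraries of the 2 alleles lay above the WT IP and also above the null IP, where the 3 arms were at 16.3 to 148 RPM. The share of all miRNAs above the WT IP was 58.4% in F180del and was not counted for G199S. F180del and G199S overlapped for miR-77-5p, and F180del lay above G199S for miR-75-5p and miR-79-5p.

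In the G199S IP 4 of the 6 arms rose, beside 25.3% of 269 miRNAs called. The log2 changes were 4.23 ± 0.45 for miR-75-5p (edgeR adjusted p = 6.5e-05), 6.67 ± 0.73 for miR-77-5p (adjusted p = 7e-05) and 4.98 ± 0.62 for miR-79-5p (adjusted p = 0.000127), and miR-77-5p had the 7th highest change of all miRNAs tested. The fourth, the major arm miR-77-3p, changed by 2.25 ± 0.48 (adjusted p = 0.00547). miR-77-3p missed the threshold without WT IP library 1 (adjusted p = 0.0670), and the 5p arms stayed past it without any 1 library, with adjusted p-values up to 0.00551. In the F180del IP the log2 changes were 4.40 ± 0.45 for miR-75-5p, 6.33 ± 0.72 for miR-77-5p and 5.35 ± 0.63 for miR-79-5p, and all 6 arms lay above both WT libraries, as did 58.4% of the 269 miRNAs. By edgeR 5 of the 6 were called, where 32.3% of miRNAs were. The embryo and germline miRNAs summed to 54012 and 59448 RPM in the G199S IP, 6452 and 7010.2 in the F180del IP and 3294 and 2863 in the WT IP, and their part in these values was not tested. In the F180del IP the muscle miRNA miR-1-3p (-1.30 ± 0.40, edgeR adjusted p = 0.0277) and the glial miRNA miR-228-5p (-1.73 ± 0.34, adjusted p = 0.00330) fell and miR-37-3p of the embryo list rose (1.37 ± 0.45, adjusted p = 0.0399), and the part of these in the values was not tested either.

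The 3p arms of mir-77 and mir-79 are the abundant strands, ranked 26 and 38 of 437 mature miRNAs by mean level in WT total RNA. miR-79-3p was higher in F180del than in every other genotype. It was at 2015 and 1716 RPM in WT total RNA, 14337.5 and 6238 in F180del, 1672 and 1921 in G199S and 1299 and 1783 in null. F180del lay above all other genotypes in total RNA, and the other 5 overlapped from one to the next. In IP miR-79-3p was at 489 and 403 RPM in WT, 6383.5 and 7059.6 in F180del, 1204 and 1454 in G199S and 556 and 456 in null. F180del again lay apart from every other genotype, but its raised miR-79-3p in IP was known when the hairpins were picked. The share of all miRNAs with F180del apart in this way was not counted. The log2 changes of miR-79-3p in F180del were 2.04 ± 0.63 in total RNA and 3.25 ± 0.54 in IP. In G199S they were -0.25 ± 0.61 in total RNA (edgeR adjusted p = 0.841) and 1.28 ± 0.50 in IP, where both libraries lay above WT but the test was missed (adjusted p = 0.0927; 0.0432 without the filter on low counts and 0.00890 with only WT and G199S in the fit; up to 0.296 over all alternatives).

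miR-77-3p was at 6837 and 3611 RPM in WT total RNA, 16019 and 8589.8 in F180del, 10632 and 10934 in G199S and 7022 and 15188 in null. All 3 mutants lay above both WT libraries and overlapped each other in order of level. The G199S change in total RNA did not pass (0.87 ± 0.63, edgeR adjusted p = 0.372). In IP miR-77-3p was at 677 and 844 RPM in WT, 8297 and 4487 in F180del, 3762 and 5219 in G199S and 413 and 854 in null. F180del and G199S overlapped and lay above the rest.

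miR-75-3p was the scarcest 3p arm and the least steady between libraries. In total RNA it was at 44.6 and 41.5 RPM in WT, 86.7 and 47.9 in F180del, 49.1 and 43.7 in G199S, 30.3 and 168 in H751L and 156 and 259 in null. Ranked by mean level, with V254I (28.3 and 47.6) last, each genotype overlapped the next. F180del and null nevertheless lay above both WT libraries. In IP it was at 49.6 and 22.6 RPM in WT, 151 and 114 in F180del and 91.7 and 45.3 in G199S. Ranked by mean level, only F180del lay apart from the next genotype, and H751L and null also lay above both WT libraries. The G199S changes did not pass in total RNA (-0.10 ± 0.72, edgeR adjusted p = 0.943) or IP (0.65 ± 0.68, adjusted p = 0.578). The log2 change in null total RNA was 2.13 ± 0.75.

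**Figure D2:**
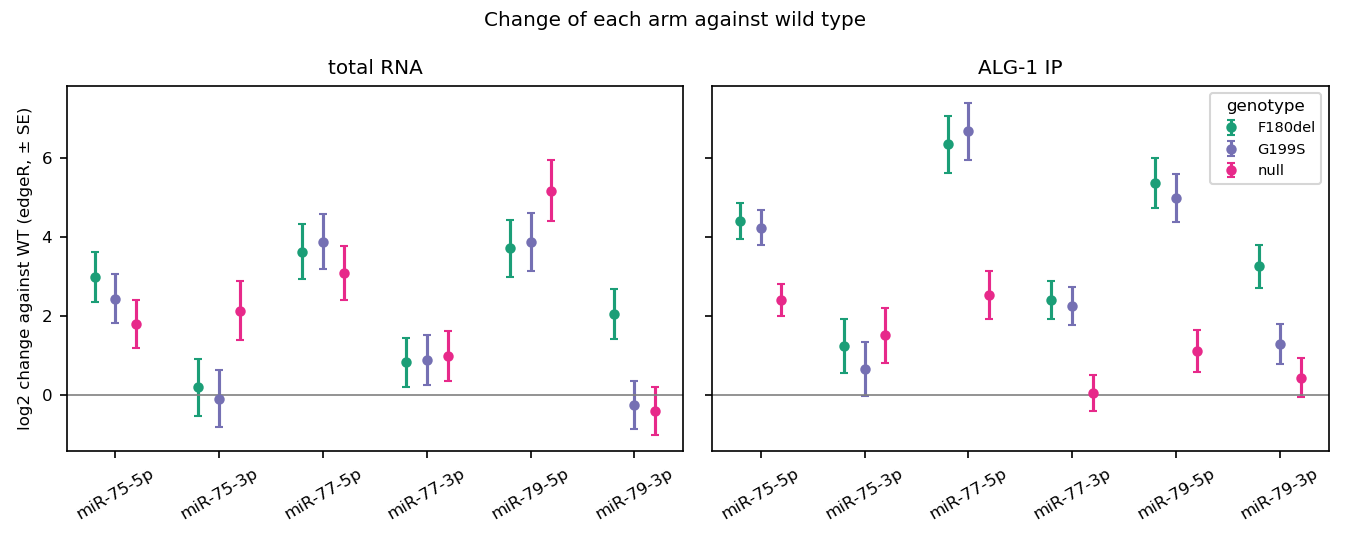
Log2 change of each arm against WT with its standard error (edgeR, 2 libraries per group) in total RNA (left) and ALG-1 IP (right) for F180del, G199S and null. In the IP the 5p arms lie near 4 or above in F180del and G199S and lower in null, and miR-79-3p is higher in F180del (3.25) than in G199S (1.28).

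Arm ratios show how the strands of a hairpin moved against each other, with both arms counted in one library. They are given as 5p reads per 100 3p reads and do not depend on library scaling. In WT total RNA the mir-75 arms were nearly even, at 109 and 132, whereas mir-77 was at 0.695 and 0.725 and mir-79 at 1.16 and 1.23. The IP libraries of WT gave 80.8 and 90.7 for mir-75, 1.87 and 1.18 for mir-77 and 6.61 and 5.20 for mir-79. The 3p arm was thus the main strand of mir-77 and mir-79 in WT, and mir-75 had no clear main strand.

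In G199S all 3 hairpins had more 5p reads per 3p read than in WT. mir-75 was at 735 and 665 in G199S total RNA and at 731 and 1560 in IP, so its 5p arm became the main strand. mir-77 was at 7.44 and 4.15 in total RNA and at 43.8 and 22.6 in IP. mir-79 was at 20.8 and 20.5 in total RNA and at 70.3 and 82.3 in IP, where the 5p strand came close to the 3p strand in number. Every one of these values lay above both WT libraries of its fraction. The share of all hairpins that did so was not counted for G199S. In F180del it was 43.4% in total RNA and 53.2% in IP, so such a position is common and not particular to these hairpins there. Over all hairpins tested the ratio also moved to the 5p side, with a median log2 change of 0.87 in total RNA and 0.97 in IP. Of all hairpins called, 14 were higher and 4 lower in total RNA, and 21 were higher and 8 lower in IP. In total RNA the log2 change of the ratio was 4.11 ± 0.76 for mir-79 (limma adjusted p = 0.00509) and 2.97 ± 0.88 for mir-77 (adjusted p = 0.0493), and mir-75 missed the threshold (2.54 ± 0.92, adjusted p = 0.0922), beside 18.2% of 99 hairpins called in either direction. The mir-77 call was lost without any 1 of its 4 libraries (adjusted p up to 0.206), while mir-79 stayed past the threshold. In IP the changes were 3.64 ± 0.78 for mir-75 (limma adjusted p = 0.00587), 4.40 ± 1.00 for mir-77 (adjusted p = 0.00803) and 3.70 ± 0.56 for mir-79 (adjusted p = 0.000713), beside 36.7% of 79 hairpins called. Without G199S IP library 1 mir-77 missed the threshold (adjusted p = 0.0627), and without library 2 mir-75 did (0.0548).

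F180del ratios differed from those of G199S in mir-79. That hairpin was at 2.07 and 8.94 in F180del total RNA and at 26.0 and 25.0 in its IP. Both mir-79 arms were abundant in F180del, so its ratio was lower than in G199S in both fractions, without overlap. mir-75 was at 814 and 881 in F180del total RNA and at 572 and 991 in IP, and mir-77 was at 4.19 and 6.69 in total RNA and at 19.7 and 28.0 in IP. The difference between the 2 alleles was not tested. The log2 changes of the ratio against WT in the F180del IP were 3.14 ± 0.78 for mir-75, 3.97 ± 1.00 for mir-77 and 2.12 ± 0.56 for mir-79. All 3 hairpins lay above both WT libraries in each fraction of F180del, as did 43.4% of hairpins in total RNA and 53.2% in IP. By limma 1 of the 3 was called in total RNA and 3 in IP, where 19.2% and 50.6% of hairpins were.

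The null showed a further pattern in total RNA. Its mir-79 ratio was 32.3 and 74.6 there, the highest of the 6 genotypes, while mir-75 was at 129 and 73.7, which overlaps WT. mir-77 was at 6.20 and 1.53. Of the 3 hairpins, 2 lay above both WT libraries, as did 34.3% of hairpins, and 1 was called by limma, where 14.1% of hairpins were. In null total RNA mir-75 thus overlapped WT while mir-77 and mir-79 lay above it, whereas all 3 hairpins lay above WT in G199S. The difference between null and G199S was not tested. In the null IP mir-75 was at 259 and 112, mir-77 at 24.9 and 1.91 and mir-79 at 13.3 and 5.87, and none of the 3 passed against the WT IP by limma (0 at an unadjusted p under 0.05, beside 20.3% of hairpins called). The mir-77 value rested on library 1: without null IP library 2 its log2 change was 4.06 (adjusted p = 0.00018), against 2.21 ± 1.00 with both (adjusted p = 0.119).

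**Figure D3:**
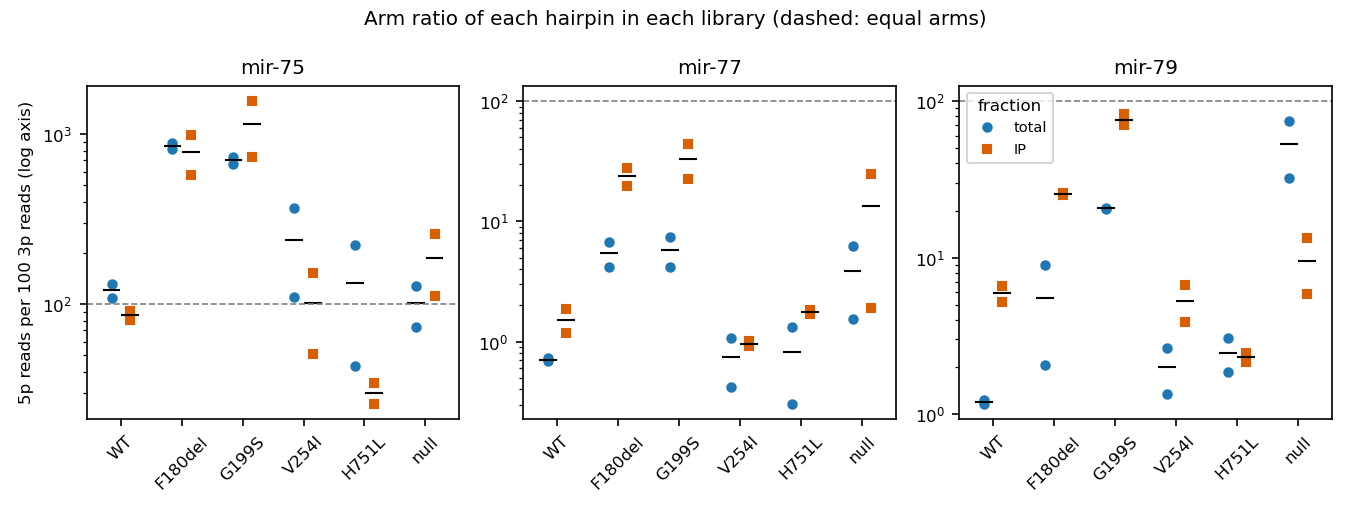
5p reads per 100 3p reads (log axis) of each hairpin in every library, with circles for total RNA, squares for ALG-1 IP, bars for group means and a dashed line where the arms are equal. G199S lies above WT in all 3 hairpins and both fractions, where the share of all hairpins that do so was not counted. In null total RNA mir-79 reaches 32.3 and 74.6.

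V254I and H751L gave no call for these hairpins, which does not show that they were unchanged. In V254I total RNA miR-77-5p was at 32.01 and 20.1 RPM, miR-75-5p at 104 and 52.2 and miR-79-5p at 30.0 and 25.7. In the V254I IP they were at 10.8 and 10.6, 51.1 and 38.2 and 48.2 and 38.5 in the same order. None of the 6 arms passed in either fraction by edgeR (0 at an unadjusted p under 0.05; 0 by DESeq2), and 0% of all miRNAs were called in each. In H751L total RNA miR-77-5p was at 56.0 and 31.7 RPM, miR-75-5p at 67.4 and 72.8 and miR-79-5p at 25.4 and 74.0. In the H751L IP they were at 17.7 and 14.997, 18.4 and 23.5 and 19.6 and 5.62. None of the 6 arms passed by edgeR in total RNA or IP (0 at an unadjusted p under 0.05; 0 by DESeq2), beside 1.98% and 2.23% of miRNAs called. Every one of these 5p values was below those of F180del and G199S in the same fraction. miR-79-5p in H751L lay above both WT libraries in total RNA and below both in IP. The nearest libraries were close, at 25.4 RPM against 23.3 in WT total RNA and 19.6 against 21.0 in the WT IP.

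Arm ratios in V254I and H751L did not pass either. In V254I mir-75 was at 368 and 110 in total RNA and at 50.9 and 152 in IP, with libraries on both sides of equal arms in the IP. None of the 3 hairpins passed by limma in V254I (0 at an unadjusted p under 0.05 in either fraction; 0% of hairpins called) or in H751L total RNA (0 at an unadjusted p under 0.05; 4.04% called). In the H751L IP mir-75 was at 25.8 and 34.3 and mir-79 at 2.15 and 2.47, both libraries below both WT libraries, the opposite side from G199S. Their log2 changes were -1.52 ± 0.78 and -1.34 ± 0.56 (limma adjusted p = 0.340 and 0.261, beside 1.27% of hairpins called; 1 of the 3 hairpins, mir-79, at an unadjusted p under 0.05).

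The last comparison set IP beside total RNA. In WT the RPM in IP was 0.146 times that in total RNA for miR-77-3p and 0.239 times for miR-79-3p, and miR-79-5p was at 1.198 times. miR-77-3p was lower in the WT IP (log2 change -2.13 ± 0.59, edgeR adjusted p = 0.0137), the 1 call among the 6 arms beside 21.9% of 315 miRNAs (DESeq2 called 3 of the 6). That call was lost without WT total library 1 or either WT IP library (adjusted p up to 0.170). miR-79-3p missed the threshold (-1.50 ± 0.55, adjusted p = 0.0545; 0.0212 with RLE factors; 0.00728 to 0.305 over all alternatives). In F180del and G199S the IP to total ratios were higher for every arm, from 0.519 (miR-77-3p) to 4.00 (miR-79-5p) in F180del and from 0.416 to 2.76 for the same arms in G199S. V254I was also above WT for every arm but miR-75-5p (0.571 against 0.585), with miR-75-3p at 1.66 against 0.838. These are ratios of group means without error, and the share of all miRNAs with a higher ratio was not counted. They are thus not shown to be particular to these arms. By edgeR the interactions called 0 of the 6 arms in F180del and 1 in null (miR-79-5p, lower), where 2.22% and 1.27% of miRNAs were called. DESeq2 called 1 of the 6 in each.

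The change of the IP to total ratio against WT was tested as an interaction. None of the 6 arms passed in G199S by edgeR (2 at an unadjusted p under 0.05, and 2 called by DESeq2; 0.952% of miRNAs called). The 2 were miR-77-5p (2.51 ± 0.82, edgeR adjusted p = 0.179, DESeq2 adjusted p = 0.0258) and miR-75-5p (1.59 ± 0.67, edgeR adjusted p = 0.459, DESeq2 adjusted p = 0.0481). With only WT and G199S in the fit miR-77-5p passed by edgeR (adjusted p = 0.00768), and over all alternatives its adjusted p reached 0.724 and that of miR-75-5p 0.906. None passed in V254I or H751L by edgeR (0 at an unadjusted p under 0.05; 0 by DESeq2; 0% of miRNAs called in each).

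**Figure D4:**
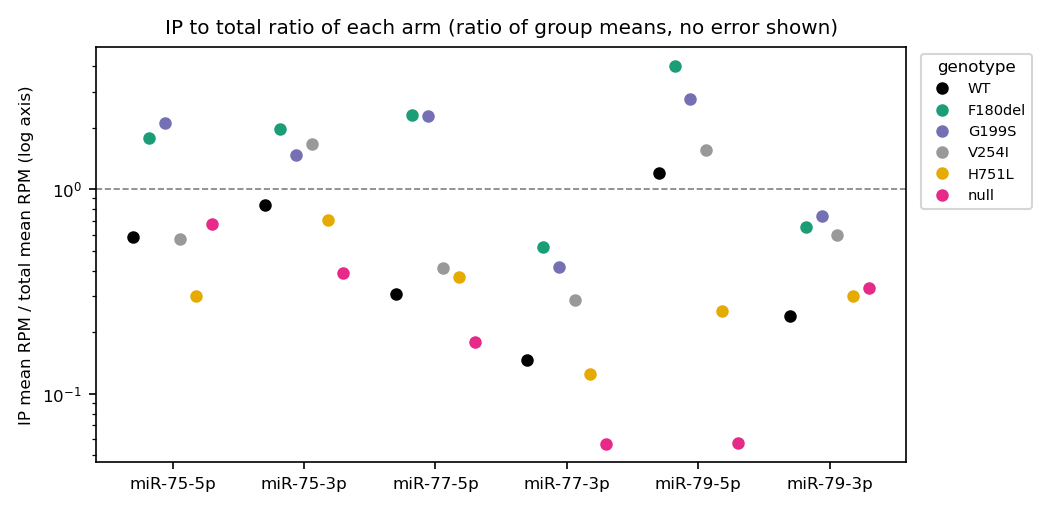
Ratio of the mean RPM in IP to the mean RPM in total RNA (log axis) for each arm and genotype, with a dashed line at 1 and no error shown. Ratios in F180del and G199S lie above those of WT for all 6 arms, and those in V254I for all but miR-75-5p. By edgeR no arm passed the interaction test in these 3 alleles, and the share of all miRNAs with higher ratios was not counted. In null miR-79-5p is at 0.0575.

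The null IP holds what is recovered without ALG-1, and how much RNA each pull-down gave is unknown here. Against the WT IP, miR-75-5p (log2 change 2.40 ± 0.41, edgeR adjusted p = 0.00199) and miR-77-5p (2.53 ± 0.60, adjusted p = 0.00725) rose in the null IP, beside 41.3% of miRNAs called, more of them lower than higher. Among the 13 stage and tissue miRNAs 1 rose and 4 fell there, and 3 of the 7 embryo and germline miRNAs were at 0 in at least 1 library. miR-75-5p was at 148 and 117 RPM there. miR-77-5p was at 103 and 16.3, and its call was lost without either WT IP library (adjusted p = 0.0520 and 0.0609). With only null and WT in the fit neither passed (adjusted p = 0.0535 and 0.150). miR-79-5p was at 73.8 and 26.8 RPM in the null IP and did not pass (1.11 ± 0.53, adjusted p = 0.115). None of the 6 arms lay above both null IP libraries in the WT IP, where 50.6% of the 269 miRNAs did: 3 lay below and 3 overlapped. In F180del all 6 arms lay above the null IP, as did 72.1% of miRNAs, and in G199S 5 did, as did 66.5% of miRNAs, with miR-75-3p overlapping.

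Pearson's r of log2(RPM + 1), centred within each fraction, was used to find the miRNAs with the most similar pattern over the 24 libraries among 169 others with a mean of at least 10 RPM. The values share libraries and depth and are descriptions. miR-239a-3p was nearest to miR-75-5p (r = 0.952) and miR-77-5p (0.966) and second for miR-79-5p (0.934), for which miR-237-3p came first (0.936). miR-239a-3p was at 4.30 and 1.85 RPM in the WT IP, 113 and 112 in F180del, 79.8 and 94.3 in G199S and 9.81 and 5.999 in null. Next came miR-253-5p and miR-58a-5p for miR-75-5p (0.931 and 0.930), miR-44-5p and miR-87-5p for miR-77-5p (0.946 and 0.940), and miR-253-5p for miR-79-5p (0.909). The 5p arms resembled each other to the same degree, with r from 0.909 to 0.945.

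The 3p arms had other neighbours. miR-79-3p was closest to miR-358-3p (r = 0.942), which was at 75.9 and 56.2 RPM in the F180del IP against 12.8 and 18.1 in G199S and 4.98 and 4.84 in WT, followed by miR-357-5p (0.863) and miR-359 (0.861). miR-77-3p was closest to miR-55-5p (0.930), miR-45-5p (0.908) and miR-5592-3p (0.896). miR-75-3p was closest to miR-1-5p, the minor arm of the muscle miRNA (0.786), miR-241-3p (0.689) and miR-71-3p (0.652). Although miR-75-3p and miR-79-3p are grouped by seed, their r was 0.365, and that of miR-75-3p with its own 5p arm was 0.376.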

How the data were processed

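Whole reads per mature miRNA were taken from the deposited count table. Its counts were repeated in 100.0% of cells of a second deposited sheet, and the authors' deposited RPM values were these counts scaled to each library's total, to within 1 RPM, in 100.0% of cells. Per the submitters' processing notes the tools included Bowtie 1.2.2, cutadapt, FastQC 0.11.8 and DESeq2, with no role stated. Which miRNA annotation was used, and what was done with multiply matching reads, is not stated. A sheet with 48 per-sample columns that match no label was not used. Of 437 mature names, 10 had several precursors, and the row with most reads was kept. No count of the alg-1 transcript was at hand to check the genotypes.

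The count test was the quasi-likelihood F-test of edgeR 4.0.16 in R 4.3.3, after filterByExpr and with TMM factors, in 1 fit per fraction over 6 genotypes and 1 over all 24 libraries. Arm ratios, log2((5p + 0.5)/(3p + 0.5)), were tested with limma 3.58.1 (trend) for hairpins whose lower arm averaged at least 10 reads. Adjusted p is Benjamini-Hochberg over all features tested, with a threshold of 0.05. SE is the log2 change divided by the square root of F, or limma's. With 2 libraries against 2 an exact permutation test of 1 value cannot go below 0.333. On simulated counts for G199S against WT in total RNA (303 miRNAs) edgeR recovered 53.3% of 8-fold and 96.7% of 32-fold changes. Replicates differed by more than sampling noise. RPM values are relative within a library, and counts carry counting error only. All 6 member rows were named, with the 3 most similar miRNAs of each. Members and lists were chosen with earlier results of these data known. Alternatives were RLE factors, library totals, no filter, DESeq2 1.42.0, only the compared groups, a replicate block, 5 reads added to each arm, a minimum of 1 read for the lower arm and leaving out each library.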

Additional observations from a re-analysis of the deposited data

Results flagged for a closer look

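In H751L the mir-79 5p arm lay on opposite sides of WT in the 2 fractions, in both libraries each. The members were searched for this pattern over all mutant genotypes, and how many other miRNAs show it was not counted. The nearest libraries were close. In total RNA they were at 25.4 RPM (277 reads) in H751L and 23.3 (115 reads) in WT. In IP they were at 19.6 RPM (271 reads) in H751L and 21.0 (260 reads) in WT. miR-79-5p averaged 49.7 RPM in H751L total RNA (25.4 and 74.0), above both WT libraries (23.3 and 21.1). In the H751L IP it averaged 12.6 RPM (19.6 and 5.62), below both (32.3 and 21.0). The interaction test of that difference did not pass (log2 change of the IP to total ratio -1.63 ± 0.88, edgeR adjusted p = 0.677; 0.418 to 1.00 without any 1 library). The mir-79 arm ratio uses the same 5p counts and is not a separate observation. It also lay on opposite sides, with a mean of 2.46 5p reads per 100 3p reads in total RNA, above WT (1.19). In IP it was 2.31, below WT (5.91), so the ratio was similar in both fractions of H751L and differed between those of WT. The difference between the fractions was not tested for the arm ratio.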

How the results depend on the processing

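Without any 1 library the count of miRNAs called ranged, in total RNA, from 1 to 49 in F180del (main 47), 12 to 21 in G199S (36), 0 to 1 in H751L (6) and 3 to 18 in null (36). In IP it ranged from 39 to 62 in F180del (87), 31 to 48 in G199S (68), 2 to 3 in H751L (6) and 62 to 168 in null (111). IP against total in WT gave 28 to 57 (69), and the IP to total interactions gave 0 to 6 in F180del (7), 0 to 2 in G199S (3) and 1 to 73 in null (4). Hairpins called by arm ratio ranged in total RNA from 5 to 14 in F180del (19), 7 to 18 in G199S (18), 1 to 6 in H751L (4) and 5 to 12 in null (14), and in IP from 20 to 28 in F180del (40), 15 to 22 in G199S (29), 0 to 1 in H751L (1) and 1 to 50 in null (16).

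DESeq2 called 81 in F180del, 74 in G199S, 19 in H751L and 69 in null total RNA, 21 in the H751L IP, 113 for IP against total in WT, and 16, 15, 3 and 28 for the interactions of F180del, G199S, H751L and null. With only the compared groups the counts were 25, 82, 0 and 11 in total RNA of F180del, G199S, H751L and null, 138, 26 and 18 in the IP of F180del, H751L and null, 113 for IP against total in WT, and 11, 27 and 1 for the interactions of F180del, G199S and null. Hairpin counts were then 8 and 0 in F180del and H751L total RNA and 4 and 2 in the H751L and null IP. Without the filter they were 62, 1 and 14 in G199S, V254I and H751L total RNA, 13 in the H751L IP and 9 for the G199S interaction, which was 7 with RLE factors. With 5 reads added to each arm 5 and 30 hairpins were called in the H751L and null IP, and with a minimum of 1 read 2 in H751L total RNA.

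The replicate block gave 13 in H751L total RNA, 0, 0 and 2 for the interactions of F180del, G199S and null, and 7 hairpins in H751L total RNA. It moved 1 member result past the threshold, the mir-75 ratio in F180del total RNA, with a log2 change of 2.82 in both fits. Deviations of same-numbered libraries correlated from -0.543 to 0.852 between genotypes in total RNA, from -0.178 to 0.565 in IP and from -0.0475 to 0.406 between fractions of a genotype. Among V254I, H751L and null total RNA they ran from 0.753 to 0.852. Other total RNA pairs took both signs, from -0.543 for WT with H751L to 0.555 for WT with F180del. Whether the numbers pair the libraries is thus not settled by this check, and the main fits treat the libraries as independent.

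Against library totals TMM lowered the members' log2 changes by a median of 0.65 in F180del IP, 0.45 in F180del total, 0.29 in G199S IP, 0.20 in G199S total and 0.13 in null total, and raised them for the null IP (shift -0.26 with library totals) and for IP against total in WT (-0.56). Calls split 47 higher to 3 lower in F180del total and 85 to 8 in F180del IP with library totals (34 to 13 and 64 to 23 with TMM), 30 to 10 in G199S total and 51 to 22 in its IP with RLE factors (33 to 3 and 55 to 13), 61 to 5 in G199S IP with library totals, and 26 to 66 (RLE) and 22 to 69 (library totals) for WT IP against total (29 to 40). For the interactions the splits were 4 to 3 (RLE) in G199S (3 to 0), and 2 to 3 (RLE) and 0 to 3 (library totals) in null (1 to 3). The higher 5p arms in G199S and F180del stayed above 0 in all 132 fits run. These fits include the main ones and reuse the same libraries, so they are not separate evidence. The F180del fits among them are descriptions, because the hairpins were picked with such values known. Values that turned were uncalled ones: miR-75-3p in G199S total (0.11 with library totals; -0.52 to 0.039 without any 1 library), miR-77-3p in the null IP (-0.26 with library totals; -0.81 to 1.08), and miR-75-3p in WT IP against total (-0.18 with RLE, -0.26 with library totals, -0.18 with DESeq2; -0.18 to 0.88). Without 1 library, miR-75-5p in WT IP against total ranged from -0.59 to 0.29, miR-75-3p in the G199S interaction from -0.30 to 0.96, the mir-75 ratio in null total from -0.70 to 0.10 and the mir-77 ratio in the H751L IP from -0.073 to 0.58. The causes were not tested. A lone library left in a group was assumed to vary like the other groups.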
